A study of Mus musculus with 4 samples.

Results

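Binding sites of the homeodomain transcription factor NKX2.2 that lie at the edge of a single protein-coding gene were examined in alphaTC6 cells, an established mouse line of glucagon-producing pancreatic alpha cells. A site was taken as the summit of a peak, the base of highest enrichment that the peak caller reports. A summit was a member when it lay on chromosomes 1 to 19 or X and within 1 kb of the start or end coordinate of exactly 1 protein-coding gene of the RefSeq annotation of GRCm38. Of 7380 placed summits, 1724 met this rule, a share of 23.4% (95% Wilson interval 22.4% to 24.3%). Another 431 lay within 1 kb of 2 or more protein-coding genes, 2904 lay inside a gene and over 1 kb from any boundary, and 2321 lay outside genes and over 1 kb from them.

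The study compared 2 NKX2.2 chromatin immunoprecipitation (ChIP) samples with 2 input samples, DNA taken without enrichment, all from the same cell line and all labelled wild type (WT). Its outcome here is 1 list of summits with 1 score each, a −log10 q-value from MACS2 that sets ChIP against input. The list holds no value per library and no expression value. Depth and replicate spread are therefore unknown, and the alpha cell label was not checked against marker genes. The score is the authors' own and is used only to describe and rank summits within the list. Summits and genes are not replicates, so differences between sets are given with 95% intervals that cover counting error only, and they were not tested.

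NKX2.2 belongs to the NK2 class of homeodomain proteins, which bind a short site built on the letters AGTG. In the pancreas it is needed for the formation and identity of endocrine cells, and it can repress or activate its targets. Most gene starts of broadly expressed genes lie in CpG-rich sequence bound by general promoter factors, whereas strong sites of lineage factors often lie away from gene starts. The data below show how the summits at gene edges are placed, which genes they mark, and which sequence letters lie under them.

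The sequences under the highest summits were read first, because they carry the pattern described further below. RefSeq promoter windows of GRCm38.p6, from 250 bases before to 50 after a start site, held 828 of the 1724 summits at the nearest start site of their own gene. The 10 highest-scoring of these are shown, of which the first 5 were chosen by rule and the other 5 after their values were seen. Each stretch runs up to 60 bases to either side of the summit and stops before the start site. Where the summit lay close to or after the start site, 30 bases are given. Sequences are written 5′ to 3′ on the strand of the gene, and capitals mark matches to an NK2 site (NAAGTG, or the form with G, TNGAGTG) or to GTTGCC, one arm of the X-box bound by RFX factors, each on either strand. The stretches are grouped by the letters they hold, so the groups themselves are no count. First come those with the X-box arm, with Senp2, which held no match.

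Pdcd6 (chr13:74317327-74317423, minus strand): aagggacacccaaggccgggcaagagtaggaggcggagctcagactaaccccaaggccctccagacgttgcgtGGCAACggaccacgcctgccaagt
Isg20 (chr7:78914141-78914234, plus strand): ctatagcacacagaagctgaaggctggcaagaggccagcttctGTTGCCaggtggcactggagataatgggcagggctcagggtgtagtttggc
Ift57 (chr16:49699161-49699281, plus strand): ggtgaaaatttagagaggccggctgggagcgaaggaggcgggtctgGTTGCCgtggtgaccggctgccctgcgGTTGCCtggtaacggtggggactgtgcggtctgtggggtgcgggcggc
Senp2 (chr16:22009286-22009406, plus strand): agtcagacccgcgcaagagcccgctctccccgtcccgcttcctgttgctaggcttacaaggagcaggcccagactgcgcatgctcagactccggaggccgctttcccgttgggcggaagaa
BC052040 (chr2:115581604-115581715, plus strand): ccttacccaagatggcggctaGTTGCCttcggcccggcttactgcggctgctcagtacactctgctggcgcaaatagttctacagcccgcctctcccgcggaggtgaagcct
Fam98b (chr2:117249616-117249736, plus strand): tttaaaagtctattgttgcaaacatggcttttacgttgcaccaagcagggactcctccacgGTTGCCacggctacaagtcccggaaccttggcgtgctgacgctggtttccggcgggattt
Nicn1 (chr9:108290231-108290351, plus strand): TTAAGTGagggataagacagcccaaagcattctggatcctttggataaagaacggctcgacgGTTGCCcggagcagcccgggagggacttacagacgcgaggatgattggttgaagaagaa

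Over the 10 highest, 6 stretches held GTTGCC on either strand, a motif picked from these very stretches. Its share in all promoter windows, which are longer, was 12.3%. Senp2 encodes a protease for the SUMO modifier. Ift57, a component of intraflagellar transport in cilia, held it 2 times. Isg20, an interferon-induced exonuclease, had its summit 34 bases before a start site with a CpG ratio of 0.0843, far below the median of 0.786 in promoter windows with a summit. RFX factors are known as regulators of cilium genes, and the family acts in islet development as well.

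The remaining members of the 10 and the 3 next-highest windows with TNGAGTG within 15 bases of the summit, the latter chosen after their values were seen, show the NK2 site.

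Gatad2a (chr8:69996343-69996372, minus strand): ggggtgccgatcTTGAGTGccccggccaga
Rps21 (chr2:180257281-180257378, plus strand): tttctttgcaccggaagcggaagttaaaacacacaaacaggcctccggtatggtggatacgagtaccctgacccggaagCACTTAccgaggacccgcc
Rnf13 (chr3:57735862-57735982, plus strand): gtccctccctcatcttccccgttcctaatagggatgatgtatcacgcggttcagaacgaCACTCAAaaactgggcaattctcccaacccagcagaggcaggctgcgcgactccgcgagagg
Mob2 (chr7:142061048-142061077, minus strand): gggcgggagccaTCGAGTGtttacttccgg
Abcf1 (chr17:35969862-35969982, minus strand): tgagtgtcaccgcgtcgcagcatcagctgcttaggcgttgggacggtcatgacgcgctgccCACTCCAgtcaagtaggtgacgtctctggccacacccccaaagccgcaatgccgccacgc
Emsy (chr7:98656601-98656721, minus strand): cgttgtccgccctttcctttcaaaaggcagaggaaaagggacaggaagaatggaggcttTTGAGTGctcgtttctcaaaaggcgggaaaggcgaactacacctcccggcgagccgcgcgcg

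TNGAGTG lay under the summits at Gatad2a, which encodes a subunit of the NuRD corepressor complex, Rnf13, a ubiquitin ligase, Mob2, a regulator of NDR kinases, Abcf1, an ATP-binding protein of translation, and Emsy, a chromatin-associated protein. The stretch at Rps21, a protein of the small ribosomal subunit, held only the shorter form with A. That form stood in 45.1% of all protein-coding promoter windows, which are longer. The glucagon gene is shown for comparison, because it is the hormone gene of this cell type.

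Gcg (chr2:62483732-62483852, minus strand): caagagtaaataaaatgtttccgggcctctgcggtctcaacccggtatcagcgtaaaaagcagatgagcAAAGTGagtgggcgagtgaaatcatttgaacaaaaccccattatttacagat

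At Gcg, the summit on chromosome 2 (base 62483792) stood 139 bases upstream of the gene. It scored 6.78, rank 5986 among placed summits, below the first quartile of the members. The stretch held AAAGTG, a match to the short NK2 core found in 45.1% of all protein-coding promoter windows. It held no match to TNGAGTG or GTTGCC.

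The distance profile came next. The median distance of a member from its boundary was 134 bp, with an interquartile range of 56 to 352 bp. Within 100 bp lay 715 members, 41.5% (95% Wilson interval 39.2% to 43.8%), and 294 lay over 500 bp away. The gene's strand could be read from the promoter table for 1424 members. Of these, 1335 lay nearest to the gene start, 93.8% (92.4% to 94.9%), and 89 nearest to the gene end. The other 300 members, whose gene has no entry of known strand in that table, are left out of the comparison of starts with ends.

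Summits at gene starts were concentrated just upstream of the start. Their signed distance had a median of -32 bp and an interquartile range of -138 to 85 bp. Upstream lay 776, 58.1%, and 559 lay at or after the start. The density fell with distance: 330 summits lay within 50 bp, 263 from there to 100 bp, 277 between 100 and 200 bp, and only 89 in the last 250 bp of the window. A start summit over 500 bp from the outermost start was found 188 times, and in 30 of these another listed start of the same gene lay within 100 bp. Bbs2 and Isg20, described below, are examples. For 47 of the 1335 start summits, all listed starts lay over 1 kb away, so the outermost coordinate is not among the starts of the promoter table.

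Summits at gene ends showed no such concentration. Their median distance was 576 bp, and only 7 of 89 lay within 100 bp of the end. They were spread over the window with 16 within 250 bp of the end, 26 between 250 and 500 bp, 21 between 500 and 750 bp and 26 beyond 750 bp. Inside the gene lay 34 and beyond its end 55. None of the 89 had a listed start site of the same gene within 1 kb.

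**Figure D1:**
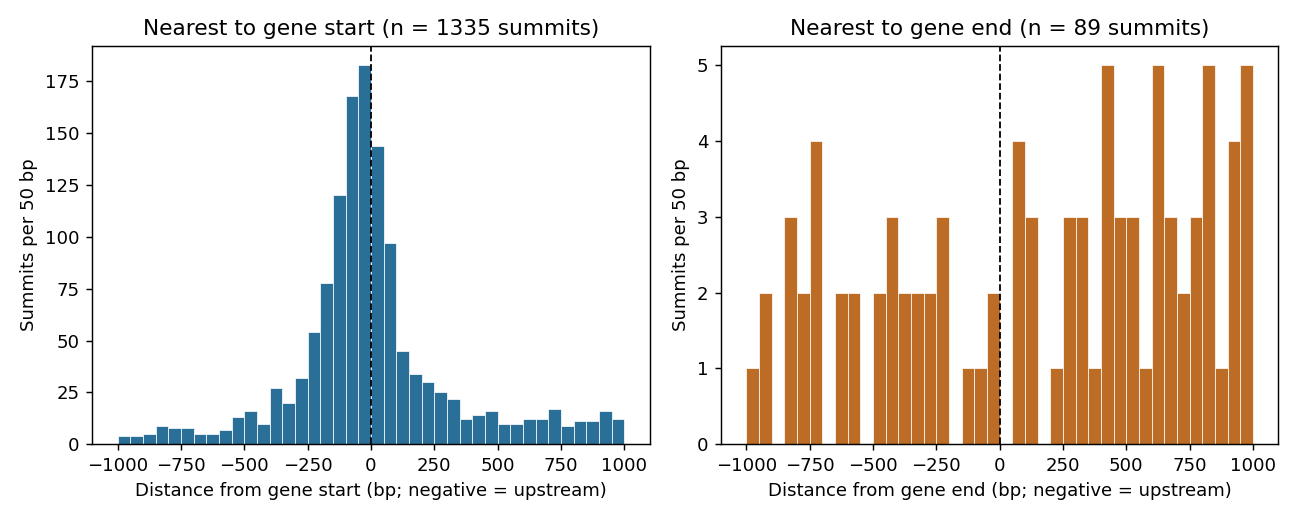
Number of single-boundary summits per 50 bp (vertical axis) by signed distance in bp from the gene start (left, 1335 summits) or gene end (right, 89 summits). Start summits peak just upstream of the start, with a median of -32 bp, while end summits are spread over the whole window.

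At the edge of the 1 kb rule, the members farthest inside were those at Cnrip1 and Sptan1, both at 1000 bp with scores of 7.57 and 14.1, and at Slc17a4, at 998 bp with a score of 8.37. The nearest summits outside it were at Mapk3, at 1004 bp with a score of 18.8, and at Pkdcc and Phlda1, both at 1005 bp with scores of 25.5 and 37.9.

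Members had somewhat lower scores than summits away from gene edges. The median score of the 1724 members was 12.4 (95% interval from order statistics 11.9 to 12.9), with quartiles of 7.56 and 24.3 and a range from 2.028 to 649. Summits at 2 or more boundaries had a median of 13.04 (11.3 to 14.3), summits inside genes 14.01 (13.5 to 14.5) and summits outside genes 14.9 (14.2 to 15.5). The interval of the members overlapped that of the summits at 2 or more boundaries and lay below the other 2. Scores of at least 100 were reached by 57 members, 3.31% (2.56% to 4.26%), against 5.37% (4.61% to 6.25%) inside and 6.33% (5.41% to 7.40%) outside genes. Members made up 25.3% of the lowest of 4 score groups of equal size among placed summits and 19.8% (18.1% to 21.7%) of the highest.

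Among the members, score depended little on place. The median was 12.9 within 100 bp and 12.7 over 500 bp from the boundary, 12.2 inside the gene and 12.5 outside it. Start and end summits had medians of 12.5 (12.01 to 13.2) and 13.5 (10.9 to 17.7). Their upper tails differed in size, with upper quartiles of 24.1 and 34.0, but scores of at least 100 were reached by only 6 end summits, 6.74% (3.13% to 13.9%), against 44 start summits, 3.30% (2.46% to 4.40%), and these intervals overlap.

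**Figure D2:**
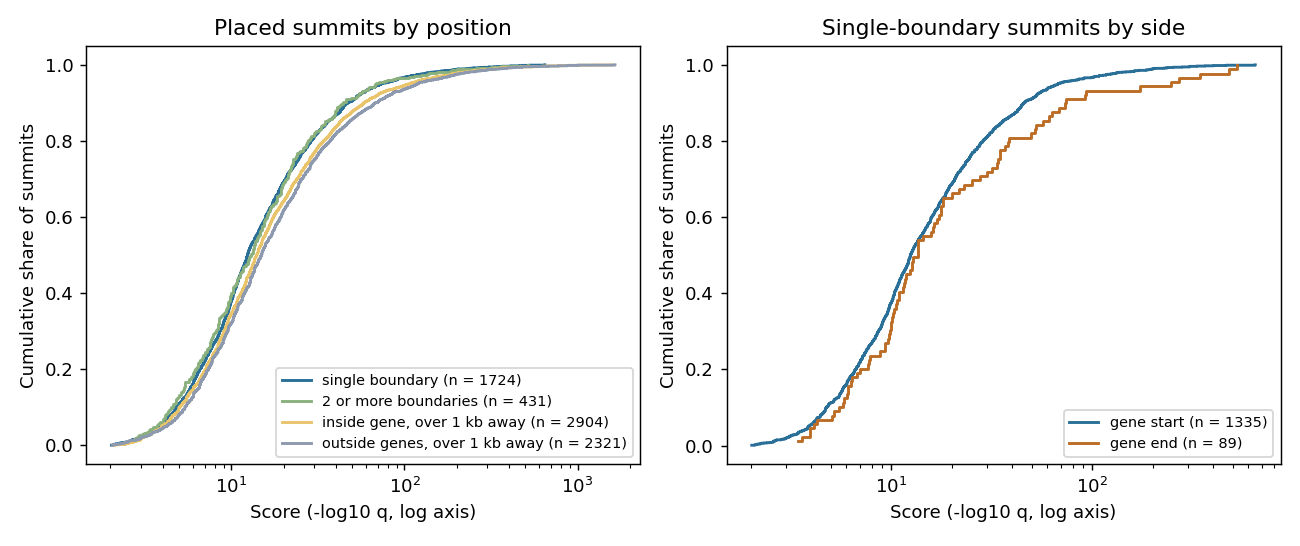
Cumulative share of summits (vertical axis) against score, −log10 q on a log axis. Left, the 4 position classes of placed summits, with single-boundary summits at a median of 12.4 against 14.9 outside genes; right, single-boundary summits at gene starts (1335) and gene ends (89), with lower quartiles of 7.55 and 9.29 and upper quartiles of 24.1 and 34.0.

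The highest-scoring members were examined singly. The highest was at Bbs2, which encodes a subunit of the BBSome, the complex that moves proteins in cilia. It lay at base 94098438 on chromosome 8 with a score of 649, rank 19 of all placed summits, 931 bp after the outermost start and 71 bp after another listed start of the gene. Capn9, a calpain protease, followed with a score of 525 at base 124618432 of that chromosome, 299 bp before the gene end. The third, at 1700010B08Rik, had a score of 478 at base 173721958 on chromosome 2, 128 bp before the gene end. These 3 summits all lay inside their genes.

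Mfn1, a GTPase of mitochondrial fusion, had a score of 463 at base 32529543 on chromosome 3, 100 bp after its start. Pdcd6, a calcium-binding protein of membrane repair and traffic, had 403 at base 74317363 on chromosome 13, 37 bp before its start. Isg20 had 364 at base 78914201 on chromosome 7, 805 bp after its outermost start. Of the 10 highest, 3 lay nearest to a gene end.

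Tmem88b, a transmembrane protein gene, had a score of 346 at base 155781189 on chromosome 4, 402 bp beyond its end. Cep41, a centrosomal protein that takes part in tubulin modification in cilia, had 331 at base 30709551 on chromosome 6, 966 bp after the outermost start coordinate and at -15802 bp from the nearest start of the promoter table. Ift57 had 306 at base 49699221 on chromosome 16, 73 bp before its start. Bbs2, Cep41 and Ift57 are all genes of the cilium and centrosome, a group taken up among the gene families.

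Genes marked by a member were counted against all protein-coding genes. A member lay at 1676 of 21631 protein-coding genes on these chromosomes, 7.75%. Of 17274 genes of known strand, 7.6% had one at the start and 0.498% at the end. Genes with a member spanned a median of 23.2 kb, with quartiles of 10.6 and 54.7 kb, against 16.8 kb, 5.54 and 44.0 kb for the other genes. Genes with only an accession-type name (Gm and a number, or Rik) had a member in 36 of 1512 cases, 2.38%.

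CpG-rich promoters were more often marked. A promoter window was called CpG-rich when its CpG count was at least 0.6 times that expected from its C and G content. Of 8890 genes with such a window 1131 had a member, 12.7% (12.05% to 13.4%), against 255 of 8384 genes without one, 3.04% (2.69% to 3.43%). At genes with a start summit, the nearest promoter window was CpG-rich in 1057 of 1312 cases, 80.6%, against 48.1% of all 21045 protein-coding windows. The median score hardly differed between summits in CpG-rich windows, at 13.02 (12.2 to 14.5), and in other windows, at 12.7 (11.0 to 15.7).

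Gene families and lists were then read against the share of 7.75% over all protein-coding genes. Of 30 lists, 19 had a higher share and 11 a lower one. The 95% interval lay wholly above 7.75% for 11 lists and wholly below it for 6. Lists share genes: Nkx2-2, Nkx6-1 and Isl1 are in both the homeobox and the islet factor list. The alpha and beta cell list shares Irx1 with the homeobox list and Slc30a8 with the solute carriers. The list of cilium and centrosome genes was made after the highest summits had been seen.

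**Figure D3:**
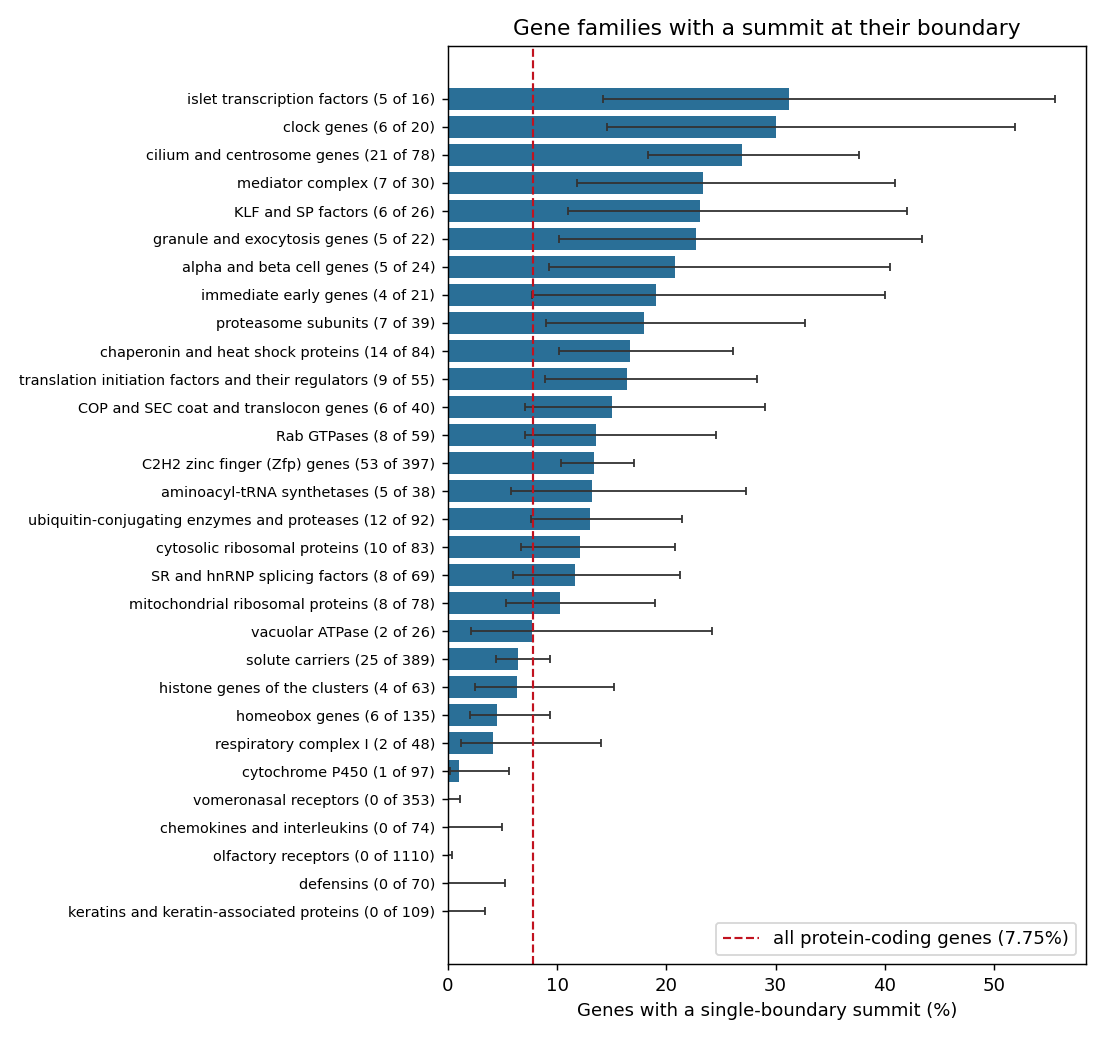
Share of genes in each of 30 families or lists that have a single-boundary summit (horizontal axis, %), with 95% Wilson intervals as error bars and counts in brackets. The dashed line marks 7.75% over all protein-coding genes; islet transcription factors (5 of 16) are at the top and 5 receptor, keratin and immune families are at 0.

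Several families of the protein machinery that all cells use had shares above the background. Proteasome subunits, which break down marked proteins, had a member in 7 of 39 genes (17.9%), with Psmd4, a ubiquitin receptor, at a score of 156, Psmd1 at 82.5 and Psma5 at 59.9. Chaperonin and heat shock genes, which fold proteins, had one in 14 of 84 (16.7%), led by Dnajc27 at 41.9. Translation initiation factors and their regulators had one in 9 of 55 (16.4%), led by Eif2ak3, the kinase PERK of endoplasmic reticulum stress, at 56.0. COP and SEC genes of vesicle coats and translocation had one in 6 of 40 (15%), led by Sec23a at 33.97 and Sar1a at 24.4, both of the COPII coat. At a score of at least 10, the share over all genes was 4.86%. The numbers then fell to 5 chaperonin and heat shock genes (5.95%) and 2 COP and SEC genes (5%), both close to that share. For initiation factor genes 5 were left (9.09%).

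Mediator, the complex that bridges transcription factors and RNA polymerase, had a member in 7 of 30 genes (23.3%), and the highest were Med25 at 30.1, Med18 at 19.96 and Med17 at 19.3. Splicing factors, a list that holds Sf3b and Prpf genes beside the SR and hnRNP groups, had one in 8 of 69 (11.6%). Hnrnpul1 led at 103, followed by Sf3b1 at 52.8. Ubiquitin-conjugating enzymes and ubiquitin proteases had one in 12 of 92 (13.04%), led by Ube2f at 90.8. Rab GTPases of membrane traffic had one in 8 of 59 (13.6%), led by Rab36 at 35.7 and Rab8a at 28.6, and aminoacyl-tRNA synthetases in 5 of 38 (13.2%), led by Pars2 at 39.4. The interval reached down to the background or below it for splicing, ubiquitin, Rab, synthetase and COP and SEC genes.

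Among ribosomal and mitochondrial genes the intervals included the background. Cytosolic ribosomal protein genes had a member in 10 of 83 cases (12.05%, interval 6.68% to 20.8%), with Rps21 at 234, Rplp0 at 47.95 and Rpl37a, near its end, at 33.8. Mitochondrial ribosomal protein genes had one in 8 of 78 (10.3%), led by Mrps36 at 45.4. Respiratory complex I had one in 2 of 48 (4.17%), at Ndufa12 with 12.2 and Ndufaf1 with 3.03. The rule leaves out summits shared by neighbouring genes, which touches these families: a further 12 mitochondrial ribosomal genes and 6 complex I genes had only such a summit. With shared summits counted, the shares were 20 of 78 and 8 of 48, against 11.5% of all protein-coding genes. Other lists were touched as well. Only a shared summit was found at 12 chaperonin and heat shock, 9 splicing and 6 cytosolic ribosomal genes. With these counted, the shares were 26 of 84, 17 of 69 and 16 of 83. The vacuolar ATPase, which acidifies organelles, had 2 of 26, at Atp6ap1 with 23.5 and Atp6v0e with 3.60.

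C2H2 zinc finger genes named Zfp had a member in 53 of 397 cases (13.4%, interval 10.4% to 17.05%), led by Zfp719 at 125, Zfp869 at 59.6 and Zfp106 at 53.8. KLF and SP factors, which bind GC-rich and CACCC boxes, had one in 6 of 26 (23.1%). Within 500 bp the number was 3 (11.5%), against 7.004% of all genes. Klf13 led with a score of 41.4, followed by Klf9 at 31.02 and Sp1 at 25.5. Klf4, a factor named in the title of the series, had a summit 528 bp before its start at base 55533003 on chromosome 4 with a score of 15.4. Homeobox genes had a member in 6 of 135 cases (4.44%, interval 2.05% to 9.36%, which includes the background), led by Meis1 at 25.3, a TALE homeodomain factor.

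Clock genes and immediate early genes are induced or rhythmic in many cell types. Of the 20 clock genes, 6 had a member (30%, interval 14.5% to 51.9%). The number was 3 (15%) at a score of at least 10, against 4.86% of all genes. It was also 3 without summits near a noncoding boundary, against 6.49% of all genes. Nr1d1, which encodes the repressor REV-ERB alpha, had a score of 132 at 11 bp before its start, while Tef was at 20.3 and Ciart at 15.6. Of 21 immediate early genes, 4 had a member (19.05%), with Fosl2 at 38.1, the orphan receptor gene Nr4a3 at 37.9 and the phosphatase gene Dusp1 at 12.2.

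Genes of the islet carried members of mostly low score. Of 16 islet transcription factor genes, 5 had one (31.3%, interval 14.2% to 55.6%): Nkx2-2, Nkx6-1, Isl1, Neurod1 and Foxa2. The number was 2 (12.5%) within 500 bp, against 7.004% of all genes. At a score of at least 10 it was also 2, against 4.86% of all genes. The gene of the factor itself, Nkx2-2, had a summit with a score of 20.6 at base 147195290 on chromosome 2. It lay 144 bp inside the outermost start coordinate, but at -8888 bp from the nearest start of the promoter table. Nkx6-1 had 13.5 and Isl1, beyond its end, 9.81. Of 24 alpha and beta cell genes, 5 had a member (20.8%), with scores from 3.64 to 7.96 and thus all under the members' median. Irx1 led with 7.96, followed by Etv1 with 7.95 and Gcg with 6.78. Away from the gene edges more summits were found. In the gene or within 10 kb, 9 of the 16 islet factor genes (56.3%) had any summit. So did 13 of the 24 alpha and beta cell genes (54.2%), against 26.1% of all protein-coding genes.

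Of 22 genes of hormone granules and exocytosis, 5 had a member (22.7%). Ptprn, a membrane protein of secretory granules, and Syt7, a calcium sensor of exocytosis, both had a score of 17.2, and the granin gene Scg2 had 15.95. With a score of at least 10 required, 4.86% of all genes had a member, and 4 of the 22 granule genes did (18.2%). None of the 24 alpha and beta cell genes did, but at a share of 4.86% few would be counted in so short a list. In the gene or within 10 kb, 14 of the 22 granule genes (63.6%) had any summit.

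Cilium and centrosome genes had a member in 21 of 78 cases (26.9%, interval 18.3% to 37.7%). Their scores ran from 3.48 to 649 with a median of 20.5, above the median of 12.4 over all members. This list was built after Bbs2, Cep41 and Ift57 had been seen among the highest summits, so its count and its scores are a description of that choice.

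Families active in other tissues were nearly empty. No member lay at any of 1110 olfactory receptor, 353 vomeronasal receptor, 109 keratin and keratin-associated, 70 defensin or 74 chemokine and interleukin genes, 1716 genes in all. Of these 1716, 15 had any summit within 10 kb, so the absence was not limited to the gene edges. Over all protein-coding genes the share with a summit in the gene or within 10 kb was 26.1%. Cytochrome P450 genes had a member in 1 of 97 cases, at Cyp46a1, a brain enzyme of cholesterol turnover, with a score of 10.7. Solute carriers and clustered histone genes were not nearly empty, and their intervals included the background. Solute carriers, a large family of transporters, had a member in 25 of 389 cases (6.43%, interval 4.39% to 9.31%). Slc4a3 led at 58.8, with Slc35f6 at 42.7 and Slc25a23 at 36.4. Clustered histone genes had 4 of 63 (6.35%, interval 2.50% to 15.2%), led by H4c14 at 117.5 and H3c6 at 21.3.

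The letters of the promoter windows were compared next. Each motif was searched on both strands, in the window nearest to the summit for 1312 genes with a start summit and in all 21045 protein-coding windows. Because 80.6% of the first set were CpG-rich, the 10131 CpG-rich windows are given as a second reference. A match is a run of letters and not a shown binding site. The NK2 core NAAGTG stood in 43.3% of windows at start summits, 45.1% of all windows and 38.4% of CpG-rich windows. Its longer form TNAAGTG, whose matches are also matches to the core, stood in 9.38%, 10.9% and 6.87%. For the core, the interval at start summits (40.6% to 45.99%) included the share of all windows. Among CpG-rich windows alone, those at start summits held the core in 41.3% (38.41% to 44.3%) and the long form in 8.23% (6.72% to 10.04%). Both intervals included the share of all CpG-rich windows, but for the core the lower limit lay almost at that share (38.42%). In CpG-rich windows with the summit inside, the core stood in 42.8% (39.1% to 46.5%), an interval above that share. There the long form stood in 8.14% (6.30% to 10.4%), which includes 6.87%.

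TNGAGTG, the form with G, differed more from both references, and it was searched only after the sequences of the highest summits had been seen. It stood in 250 of 1312 windows at start summits, 19.1% (17.02% to 21.3%), against 11.0% of all and 8.85% of CpG-rich windows. Among the 826 windows with the summit inside, 1 per gene, the share was 25.9% (23.04% to 29.003%). It was 13.5% (9.53% to 18.9%) in the lowest of 4 equal score groups, 17.96% and 32.5% in the next 2, and 39.6% (33.2% to 46.4%) in the highest. The nearest match lay a median of 15 bp from the summit, and 156 of 214 windows with a match had it within 50 bp. Windows with a match had a median score of 19.5 (17.3 to 21.6), and windows without one 11.9 (10.8 to 12.4). At scores of at least 100, 9 of 26 windows held TNGAGTG, 34.6% (19.4% to 53.8%). The windows of Gatad2a, Rnf13, Mob2, Abcf1 and Emsy, printed above, are among these 9 and in the highest score group. The motif was picked from the highest windows, so these shares are no independent support for it. The forms with A showed no such rise with score. The core stood in 44.4% of the lowest and 43.96% of the highest score group, and the long form in 9.18% and 8.21%.

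The X-box arm GTTGCC was likewise added after the sequences were seen. It stood in 15.6% of windows at start summits (13.8% to 17.7%), against 12.3% of all and 12.4% of CpG-rich windows. The share was 14.5% (10.3% to 19.9%) in the lowest score group and 21.7% (16.7% to 27.8%) in the strongest, and these intervals overlap. Of 26 windows whose summit scored at least 100, 11 held it, 42.3% (25.5% to 61.1%), but 6 of these stretches are printed above, and the motif was chosen from them.

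Most general promoter elements had shares nearer to those of CpG-rich windows than to those of all windows. The GC box GGGCGG stood in 70.6% of windows at start summits (68.1% to 72.98%), against 46.7% of all and 74.2% of CpG-rich windows, and the ETS site CCGGAAG in 21.0%, 11.7% and 19.8%. The NRF1 site GCGCATGC stood in 6.02%, 3.54% and 6.40%, the YY1 site AAGATGGC in 5.18%, 3.07% and 4.94%, and the E-box CACGTG in 11.97%, 7.91% and 11.4%. The TATA box TATAAA stood in 5.49%, 12.66% and 5.57%, and the AP-1 site TGANTCA in 4.19%, 7.04% and 3.45%.

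The CCAAT box, the site of NF-Y, was above both references. CCAAT stood in 48.8% of windows at start summits (46.1% to 51.5%), against 38.5% of all and 36.5% of CpG-rich windows. Its share was 40.1% (33.7% to 46.9%) in the lowest score group and 56.5% (49.7% to 63.1%) in the strongest. The KLF box CCACACCC stood in 5.03% (3.97% to 6.35%), against 3.64% and 3.29%, and was thus also above both references. The cAMP response element TGACGTCA stood in 3.81%, 2.26% and 3.72%.

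**Figure D4:**
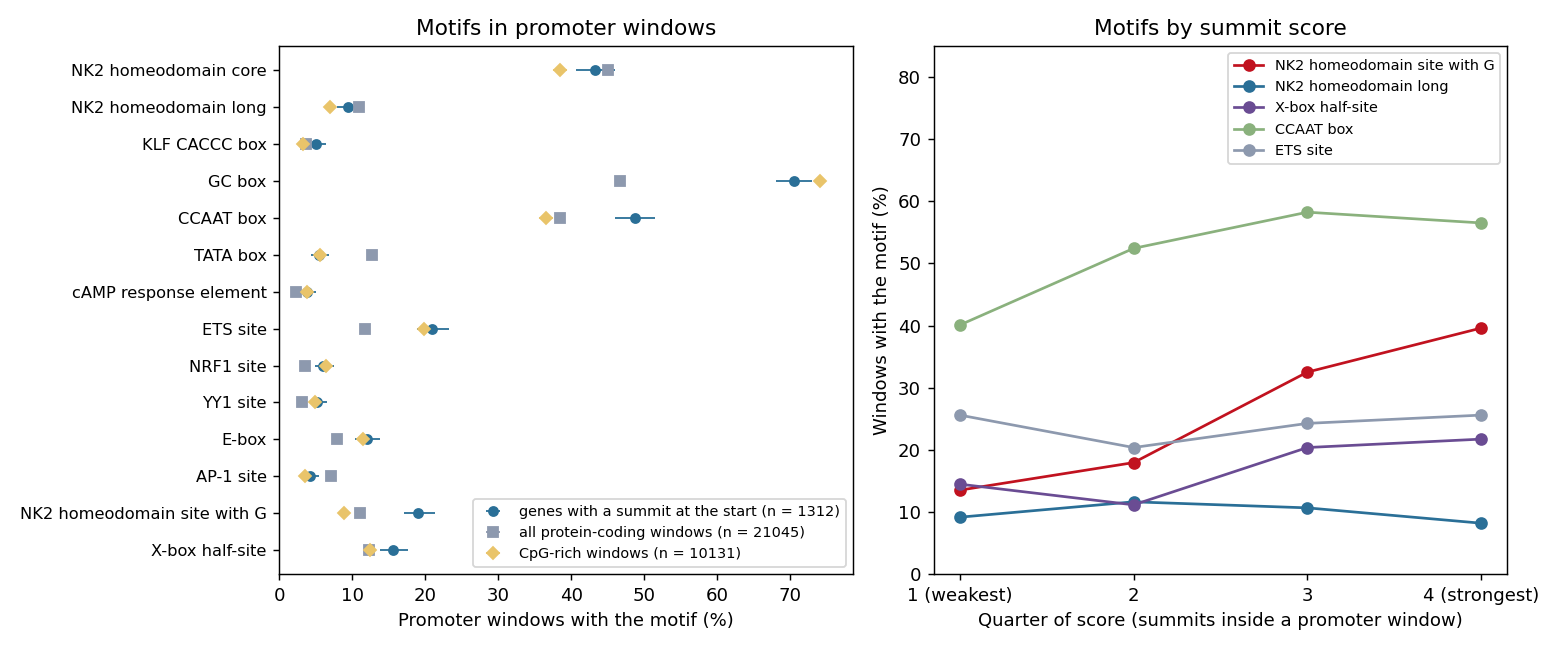
Left, share of promoter windows with each motif (horizontal axis, %) for 1312 genes with a start summit, all protein-coding windows and CpG-rich windows, with 95% Wilson intervals. Right, share of windows with the summit inside that hold 5 of the motifs, by 4 equal groups of summit score. The NK2 site with G, picked from the highest windows, climbs from 13.5% to 39.6%.

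A search over all 2080 words of 6 bases within 40 bases of the summit returned parts of both added motifs among its extremes. Both motifs had been picked from the highest of these same windows, so their return here is no independent support. In the highest score group of windows compared with the lowest, the largest excess was that of CCACTC, in 57 against 27 of 207 windows each. ACTCAA, which shares the letters ACTC with it, stood in 29 against 4. GGCAAC, the X-box arm on the other strand, stood in 29 against 8, and CCTCTC, which is part of neither motif, in 50 against 23. The words most depleted in the highest score group were rich in C and G, with GCCCCC in 19 against 41 windows and CCGCAG in 10 against 32. These are the extremes of 2080 words and carry no test.

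Members had another summit close by less often than summits inside or outside genes did, and about as often as summits at 2 or more boundaries. The nearest other summit lay a median of 47.6 kb away, against 35.1 kb for summits inside genes and 40.6 kb for those outside. Summits at 2 or more boundaries had a median of 46.2 kb. Within 10 kb lay another summit for 287 members, 16.6% (14.96% to 18.5%), against 22.8% (21.3% to 24.4%) inside genes, 23.6% (21.9% to 25.3%) outside genes and 14.6% (11.6% to 18.3%) at 2 or more boundaries. Within 1 kb the shares were 3.31% for members, 3.17% inside and 3.23% outside genes, and 2.78% at 2 or more boundaries, with overlapping intervals. Of the 287 members, 114 had another member as the nearest summit, 83 a summit inside a gene, 65 one outside genes and 25 one at 2 or more boundaries.

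In all, 1628 genes had 1 member and 48 had 2, and none had 3 or more. Of the 48 genes, 23 had both summits at the start, 12 had 1 at each end and 3 had both at the end, while 10 had no known strand. The 23 start pairs lay 399 to 1655 bp apart, with a median of 710 bp, and in 16 the summits flanked the start. The examples that follow were chosen after their values were seen. Klf9 had scores of 31.02 at 156 bp before and 9.08 at 919 bp after its start. Gapdh, the glycolytic enzyme gene, had 27.8 shortly before the outermost start and 9.04 at 788 bp after it.

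Pairs with a summit at each end could be unequal. At Ddit4, an inhibitor of mTORC1 signalling, the score was 92.9 at 133 bp beyond the end and 2.10 at 200 bp before the start. Capn9 had 525 near its end and 27.4 at 867 bp after its start. Ctbp1, which encodes a corepressor, had 16.4 at 706 bp beyond the end and 2.028 at 875 bp after the start. At Ccdc184 both were above the upper quartile, at 173 beyond the end and 60.9 at 4 bp after the start.

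The next gene was usually some distance away, as the rule requires at least 1 kb. The nearest boundary of another protein-coding gene lay a median of 13.8 kb from the member, with quartiles of 5.14 and 37.4 kb. It lay within 2 kb for 139 members and over 100 kb away for 132. Inside the body of another gene lay 62 members. Where both strands were known, the neighbour was on the opposite strand in 576 of 1216 cases, 47.4% (44.6% to 50.2%).

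Members were found at 4.58% to 11.2% of protein-coding genes on the autosomes other than chromosome 14, with the lowest share on chromosome 9 and the highest on chromosome 6. Over the 19 autosomes the share was 8.08% ± 2.25 (SD, n = 19 chromosomes). Chromosome 14 had a member at 7 of 851 genes, 0.823%, and the X chromosome at 15 of 966, 1.55%. On chromosome 14 members were also a small share of the few summits, 7 of 76 or 9.21% (4.53% to 17.8%), while on the X chromosome they were 16 of 62, 25.8% (16.6% to 37.9%).

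**Figure D5:**
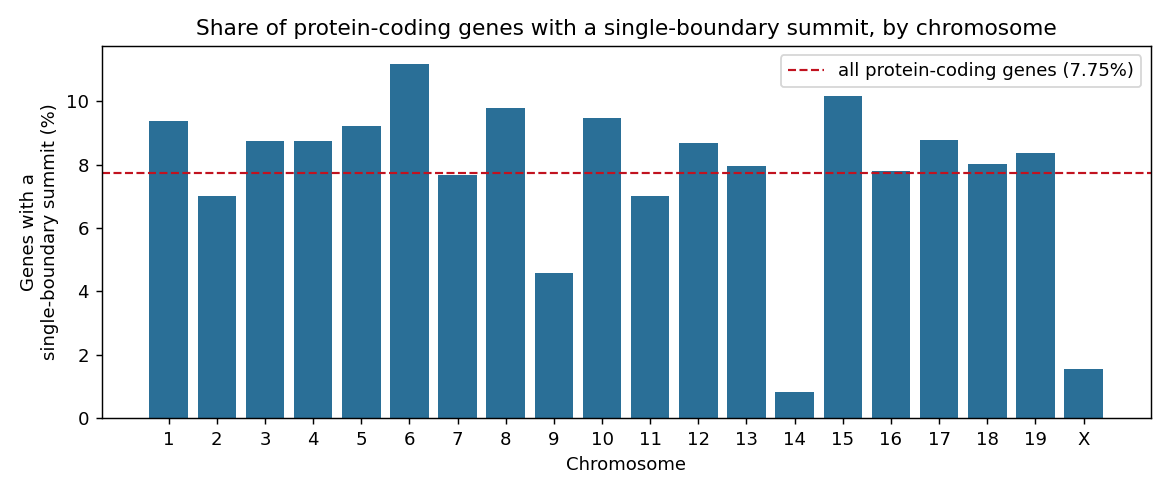
Share of protein-coding genes with a single-boundary summit (vertical axis, %) on each chromosome, with a dashed line at 7.75% over all genes. Chromosome 14 (0.823%) and the X chromosome (1.55%) are lowest and chromosome 6 (11.2%) is highest.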

How the data were processed

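The deposited list gives chromosome, start, end, peak name and a score per summit, taken as −log10 of the MACS2 q-value. The design text names MACS2 as the caller. Bowtie2, FastQC and build mm10 are named per the submitters' processing notes, and all peak names hold the word nomodel. Versions, settings, treatment of duplicate reads and pooling of replicates are not given in the sources used here. Samples were grouped by title, 2 of ChIP and 2 of input.

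Positions (start + 1) were placed on the RefSeq genes of GRCm38.p6. Strand, start sites and sequence came from a RefSeq promoter table, with windows for 17274 protein-coding genes on these chromosomes. Exons, introns and UTRs were not distinguished. Wilson intervals and order-statistic intervals of medians are at 95%. Placement was tested on simulated positions. Software: matplotlib 3.10.9, scipy 1.17.1, pandas 2.3.3, numpy 2.4.6 and Python 3.11.15.

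The members, gene lists and motifs were chosen with earlier results of these data known. Named genes were, by rule, the 10 highest-scoring members, up to 3 per list, genes with 3 or more members, Gcg, Nkx2-2 and Klf4, and summits nearest to the 1 kb limit; others are marked. 1 of the 10 is not reported here. Symbol patterns for histones, defensins, translation and coat genes were corrected to the annotation's names. Alternatives were score minimums of 5 and 10, distances of 500 bp and 2 kb, merging within 500 bp, and exclusion of noncoding boundaries.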

Additional observations from a re-analysis of the deposited data

Results flagged for a closer look

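Outside the chromosomes used for the placement, 4 summits lay on contigs that are not assembled into a chromosome. This is above a fixed floor of 3, which is a setting and not an expected number. Their scores were 3.48, 9.53, 30.8 and 109.8. They enter no count above.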

How the results depend on the processing

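No paired analysis was possible because no score is given by replicate, and neither replicate could be left out. A score of at least 5 gave a median score of 14.1 and a member at 6.94% of genes; a score of at least 10 left 1067 members, a median of 19.96 and 4.86% of genes. Both follow from the removal of low scores. A distance of 500 bp gave 49.4% within 100 bp, 96.5% at starts, 39.3% inside the gene and 7.004% of genes; 2 kb gave 35.8%, 90.4%, 45.8% and 8.31%. With no noncoding boundary allowed, 6.49% of genes had a member, a value added after seeing the data. The other values stayed within 1.5 times, for counts, or within the interval of the value reported. Merging within 500 bp left 1723 members, and requiring no noncoding boundary left 1445, with a median score of 12.4. Measured from the nearest listed start site, an alternative chosen after seeing the data, 41.01% of members of known strand lay within 100 bp. Of 30 lists, 28 kept their side of the background at a score of at least 10, all but the histone and the alpha and beta cell lists. At 500 bp, and with shared summits counted, 27 did, all but complex I, vacuolar ATPase and histone genes. The number of genes with a member moved by over 1.5 times in 12 of 30 lists at a score of at least 10 in 10 with shared summits counted, in 5 at 500 bp, and in 2 each at 2 kb and at a score of at least 5. For 14 motifs, the share moved out of its interval for 4 when only windows with the summit inside were taken, and the reference share moved for 13 in CpG-rich windows. A missing summit shows only that no peak was called at an unknown depth.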

Other observations

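Noncoding genes lay close to some members. A boundary of a noncoding gene was within 1 kb of 279 members, 16.2%, and for 240 of them it was a long noncoding RNA gene. A microRNA gene boundary was that close to 13 members. The median score was 12.4 both with and without a noncoding boundary nearby, while scores of at least 100 were reached by 5 of 279 and 52 of 1445 members.

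The strongest summits at gene ends, chosen after their values were seen, continue the list of the 10 highest. After Capn9, 1700010B08Rik and Tmem88b came Gas1, a hedgehog coreceptor, with a score of 270.1 at 635 bp beyond its end, Zc3h10 with 248 at 435 bp and Ccdc184 with 173 at 411 bp. Genes with an end summit spanned a median of 15.8 kb.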
